A study of Caenorhabditis elegans with 2 samples.

Results

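The nuclear hormone receptor genes named nhr- with a number were examined for binding of TBX-2, a T-box transcription factor of the nematode Caenorhabditis elegans that is required to form pharyngeal muscle. All protein-coding genes whose symbol starts with nhr- and a digit were taken from the Ensembl annotation of build WBcel235, which gave 269 of 19985 protein-coding genes. Of these 269 genes, 167 lay on chromosome V, 33 on IV, 23 on I, 23 on X, 15 on II and 8 on III, so V held 62.1% of the family against 24.5% of the other protein-coding genes. The data are chromatin immunoprecipitation followed by sequencing (ChIP-seq) from strain OP159, with genotype unc-119(ed3) III and wgIs159, the latter a stably carried transgene for TBX-2 tagged at its C terminus with GFP-FLAG. Whole hermaphrodites at the L3 larval stage were collected 48 h after synchronization by starvation at L1, and chromatin was precipitated through the GFP tag. Both biological replicates belong to this 1 group and carry the same transgene, so the data hold no comparison between conditions, and no untagged worms or input were analysed here. Because whole worms were used, binding in a few cells and weaker binding in many cells cannot be told apart.

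Nuclear hormone receptors are transcription factors with a zinc-finger DNA-binding domain and a ligand-binding domain, through which lipids, steroids and metabolites can control transcription. In C. elegans the family expanded greatly, mainly from an ancestor related to the vertebrate receptor HNF4, and many of the resulting genes lie in clusters on chromosome V. A smaller number are related to receptors found across animals and act in moulting, development, fat metabolism and detoxification. T-box factors such as TBX-2 bind DNA through a core site written GGTGTG.

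The authors' thresholded list on build ce11 held 1631 entries, which were exactly the 1631 strongest of the 30000 entries ranked for the pooled replicates. The ranked lists held 28366 entries for replicate 1 and 30000 for replicate 2 and include background by construction, so an entry by itself is no call and each is given with its rank. The strength of an entry is the signal value of the authors' peak caller, and the weakest thresholded entry had 90.97. Values of the pooled and replicate lists were not normalized to each other, and the lists hold no counts, so read depth is unknown. At the promoter of tbx-2, the tagged gene itself, the pooled signal value was 332, with 194 in replicate 1 and 146 in replicate 2. A gene was called at its promoter when the summit of a thresholded entry lay from 1000 bp upstream to 200 bp downstream of an annotated transcript start, and in its body when a summit lay between the gene's ends.

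Taken as a whole, the receptor family carried TBX-2 summits about as often as other genes, and 11 of its 18 members with a thresholded summit lay on X. At promoters, the share on X rested on summits of moderate strength. Among the strongest 815 of the 1631 thresholded entries, 1 of 23 receptor promoters on X was called (4.35%, against 3.19% of all genes there). On V, 3 of 167 were called (1.80%, against 1.72%). In gene bodies on X, the summits of nhr-3, nhr-17 and nhr-14 ranked 266, 448 and 498, inside those 815. The share of all genes with so strong a body summit was not counted. A thresholded promoter summit was found at 12 of the 269 receptor genes (4.46%), against a background of 5.41% of all protein-coding genes. A thresholded summit lay in the body of 10 receptor genes (3.72%), against 2.15% of all genes. Counting either position gave 18 receptor genes (6.69%) against 6.63% of all genes, of which 4 had both, namely nhr-1, nhr-3, nhr-40 and nhr-47. The remaining 251 receptor genes had no thresholded summit in the promoter or the body.

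The family's place on the chromosomes changes what its total should be compared with. On X, 7 of 23 receptor genes (30.4%) had a promoter summit, against a background of 6.41% of all genes on that chromosome. In the gene body the count on X was also 7 of 23 (30.4%), against 3.37% of all genes on X. On V, 3 of 167 receptor genes (1.80%) had a promoter summit, against 3.56% of all genes on V, and 1 (0.599%) had a body summit, against 1.28%. Joining both positions, 11 of the 23 receptor genes on X (47.8%) were called and 7.87% of the other genes on X. The corresponding shares on V were 1.80% of receptor genes and 4.33% of the other genes. On the other autosomes 4 of 79 receptor genes were called (5.06%), against 7.19% of the other genes there.

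If each receptor gene had been called at the rate of the other genes of its chromosome, 11.9 promoter calls would have been counted, and 12 were. Leaving out X, the same arithmetic gave 10.5, and 5 of 246 receptor genes (2.03%) were called, against 5.24% of the other genes. For gene bodies the chromosome rates gave 4.51 and 10 were counted, and without X they gave 3.79 and 3 were counted. The near-background total of the family at promoters was thus the sum of a higher share on X and a lower share elsewhere. These shares describe 1 group of worms and were not tested, because the genes were chosen with earlier results of these data known and neighbouring genes are not independent.

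**Figure D1:**
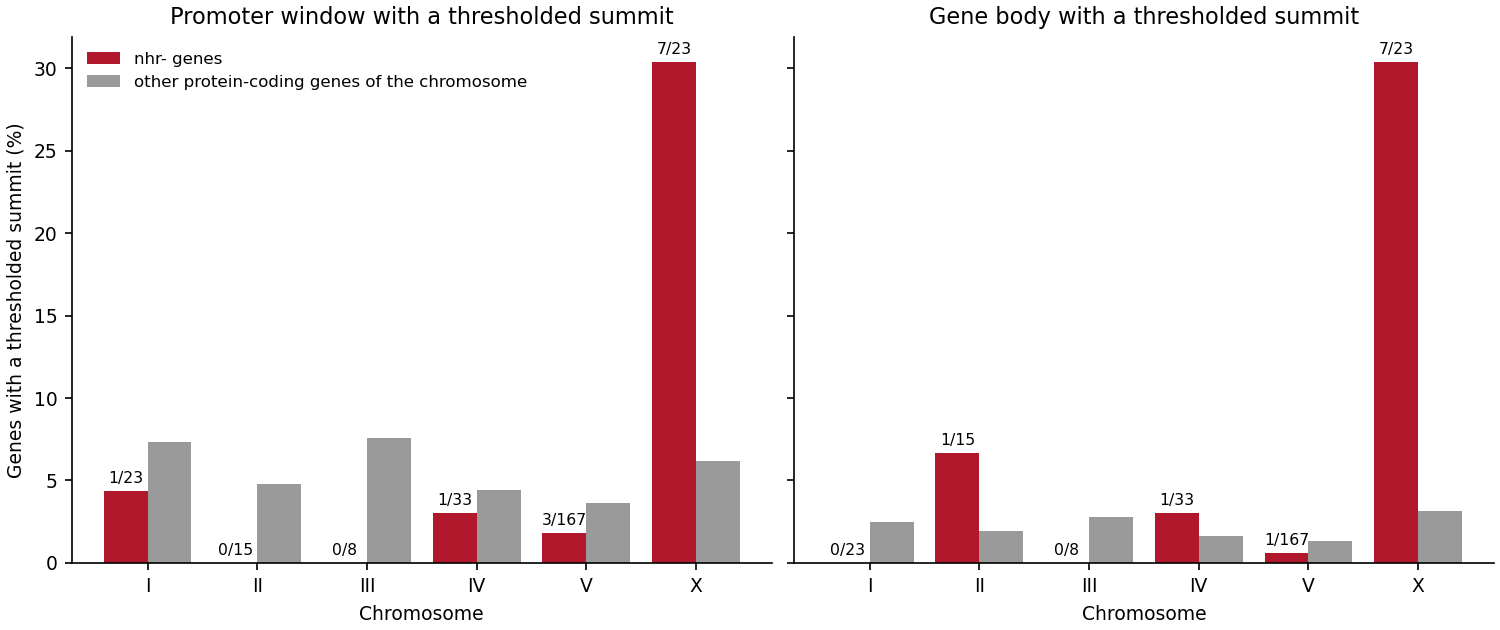
Share of genes with a thresholded TBX-2 summit by chromosome, for receptor genes (red) and the other protein-coding genes of the same chromosome (grey), with promoters in the left panel and gene bodies in the right panel. The bar for receptor genes on X stands at 30.4% in both panels, against 6.20% and 3.14% of the other genes on X, while on V it lies at 1.80% and 0.599%.

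On X the receptor genes with a thresholded summit were nhr-1, nhr-3, nhr-14, nhr-17, nhr-32, nhr-35, nhr-40, nhr-48, nhr-91, nhr-137 and nhr-255. They carried 13 of the 386 thresholded summits on X, or 3.37%, while the 23 receptor genes made up 0.842% of the protein-coding genes on X. A share of genes is not a share of sequence. These 23 genes spanned 0.2112 Mb and the other genes on X 9.85 Mb, and their spacing also differed. DNA around the summit is shown for 4 of these genes, chosen because they span the positions and sites found: nhr-48 and nhr-40 hold the T-box site, nhr-32 holds a CACGTG, and the intron of nhr-3 holds the strongest summit of a receptor gene on X with no searched site. For contrast with these, 1 stretch is shown from V, at nhr-142, which shares its summit with a neighbouring gene. Each is 121 bp of the plus strand of the RefSeq genome of WBcel235 with the summit in the middle, and capitals mark the T-box site GGTGTG, the GATA site TGATAA, the E-box CACGTG, the GAGA repeat GAGAGAG and the added site CGCAGGG, each on either strand. The stretches are chrX:15707547-15707667 for nhr-48, chrX:2598880-2599000 for nhr-40, chrX:13251551-13251671 for nhr-32, chrX:14560357-14560477 for nhr-3 and chrV:5791011-5791131 for nhr-142.
nhr-48: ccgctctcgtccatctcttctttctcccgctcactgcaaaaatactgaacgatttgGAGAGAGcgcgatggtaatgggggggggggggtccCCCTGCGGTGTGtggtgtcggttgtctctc
nhr-40: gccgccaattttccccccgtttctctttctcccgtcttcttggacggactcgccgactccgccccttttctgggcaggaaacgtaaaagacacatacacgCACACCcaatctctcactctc
nhr-32: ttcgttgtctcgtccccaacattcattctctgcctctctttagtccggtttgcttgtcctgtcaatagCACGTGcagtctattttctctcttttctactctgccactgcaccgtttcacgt
nhr-3: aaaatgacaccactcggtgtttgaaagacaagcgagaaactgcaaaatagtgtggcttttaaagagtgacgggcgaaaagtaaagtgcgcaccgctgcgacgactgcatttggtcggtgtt
nhr-142: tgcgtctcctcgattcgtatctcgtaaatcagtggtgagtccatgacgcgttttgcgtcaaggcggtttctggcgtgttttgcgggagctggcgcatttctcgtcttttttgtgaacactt

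Among the receptors related to those of other animals, nhr-48 carried a promoter summit and nhr-91 a summit in an intron. NHR-48 is related to DAF-12 and NHR-8 and to the vertebrate vitamin D receptor group, and NHR-91 to the vertebrate germ cell nuclear factor. The summit of nhr-48 lay 606 bp before its start at chrX:15707397-15707816, with signal values of 132 pooled, 88.1 in replicate 1 and 53.9 in replicate 2. Its ranks were 906, 666 and 1197, so it was among the 1631 strongest entries of both replicates. In the stretch shown above, GGTGTG starts 37 bp from this summit, and GAGAGAG starts 4 bp before the summit and covers it. The intron summit of nhr-91 was weaker, at 95.8 pooled, 37.1 in replicate 1 and 57.3 in replicate 2, with ranks of 1505, 2908 and 1076. It was therefore outside the 1631 strongest entries of replicate 1.

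nhr-1 and nhr-3 each carried a pair of summits. At nhr-1 the first lay 354 bp before the outermost start, with signal values of 154 pooled, 80.4 in replicate 1 and 70.8 in replicate 2. The second lay 5653 bp inside the gene and 19 bp before an inner transcript start, with 94.3, 41.7 and 48.4. This inner summit ranked 1543 in the pool, while the replicates placed it at 2403 and 1429, so only replicate 2 held it among its 1631 strongest entries. At nhr-3 the stronger summit was the one in the intron, 1913 bp inside, with 253 pooled, 146 in replicate 1 and 103 in replicate 2. The promoter summit of nhr-3 lay 961 bp upstream, near the outer edge of the window, with 136, 77.5 and 58.3. Both summits of nhr-3 were among the strongest entries of each replicate, with ranks from 249 to 1037 over the replicates.

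The remaining promoter summits on X fell in a narrow band of strength. nhr-40, needed for muscle development, had signal values of 131 pooled, 63.96 in replicate 1 and 73.3 in replicate 2 at a summit 468 bp before an inner start and 4937 bp inside the gene from the outermost start. nhr-32 had 129, 80.3 and 49.4 at 353 bp before its start, and nhr-35 had 112, 60.2 and 48.9 at 422 bp. nhr-255 had 132, 68.3 and 56.9 at 584 bp. Apart from nhr-1 at rank 687, the strongest promoter entry of each called receptor gene on X ranked from 866 to 1154 in the pooled list. Thus 6 of the 7 ranked below the strongest 815 thresholded entries, where 88 genes of all 2731 on X lay, while 87 lay above.

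Introns held the other called summits on X. nhr-14, which acts in iron metabolism and the response to bacteria, had 186 pooled, 78.9 in replicate 1 and 105 in replicate 2 at 850 bp inside the gene, while its best promoter entry was unthresholded at 50.8 and rank 4229. nhr-137 had 111.1, 63.5 and 56.1 at 4722 bp inside the gene. nhr-17 had 197, 113 and 86.3 at 2655 bp inside. These genes were called in the body alone, and each summit was among the 1631 strongest entries of both replicates.

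The summits of nhr-17 and nhr-255 lay beside transfer RNA (tRNA) genes, at 29 and 24 bp. They are shown because a receptor gene and a tRNA gene cannot be told apart as the place of binding there. Both stretches are 121 bp of the plus strand of WBcel235 from RefSeq, at chrX:12665139-12665259 and chrX:15741966-15742086, and capitals here mark the bases of the tRNA gene, 32 and 37 of them.
nhr-17: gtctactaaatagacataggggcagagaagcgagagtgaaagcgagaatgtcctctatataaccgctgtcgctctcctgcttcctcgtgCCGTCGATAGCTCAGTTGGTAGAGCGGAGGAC
nhr-255: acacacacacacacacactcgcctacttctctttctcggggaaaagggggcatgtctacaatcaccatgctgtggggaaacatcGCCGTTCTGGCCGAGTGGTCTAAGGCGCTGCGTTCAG

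Summits within 500 bp of a small RNA gene made up 2 of the 22 at receptor genes, against 276 of all 1609 nuclear summits (17.2%) and 88 of the 386 on X (22.8%). Without summits near a tRNA gene, 6 of 23 receptor genes on X kept a promoter call (26.1%, against 5.82% of all genes there), with nhr-255 lost. Over all chromosomes 4.09% of receptor genes had a promoter call at this setting, against 5.19% of all genes. In the gene body, nhr-17 lost its call.

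Each of the 3 receptor summits on V was strong, and each also lay in the promoter window of a neighbouring gene. At nhr-47 the summit lay 19 bp inside the start, in the 5′ untranslated exon, with signal values of 323 pooled, 193 in replicate 1 and 131 in replicate 2, the highest of any receptor gene. The same summit was 415 bp before the start of dnj-19. At nhr-68, which controls the propionate breakdown pathway, the values were 278, 131 and 147 at 427 bp before its start, but the start of H12C20.7 on the opposite strand was 23 bp away. At nhr-142 they were 191, 89.6 and 98.1 at 518 bp before its start, and the start of F44E7.9 was 159 bp away. Of the V promoter summits as a whole, 49 of 132 (37.1%) lay in the windows of several genes, against 13 of 172 (7.56%) on X and 244 of 861 (28.3%) in all. When each summit was given only to the nearest start, nhr-68 and nhr-142 lost their calls and 10 receptor genes were left. The share of all genes called under that rule was not counted.

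The other autosomes had 4 receptor genes with a thresholded summit. nhr-49, a regulator of fat metabolism and of the fasting response on I, had a summit 326 bp before its start with signal values of 152 pooled, 66.4 in replicate 1 and 84.5 in replicate 2. nhr-43 on IV had 126, 64.1 and 62.6 at 37 bp before its start, the summit closest to a start among those upstream. Both summits lay in the promoter window of no other gene. nhr-19 on II had intron summits of 207 and 117 pooled, with 85.5 and 50.4 in replicate 1 and 119 and 74.1 in replicate 2. nhr-46 on IV had intron summits of 145 and 94.0 pooled, with 77.3 and 45.4 in replicate 1 and 66.3 and 51.8 in replicate 2. The weaker of each pair was outside the 1631 strongest entries of replicate 1, at ranks 1730 and 2070, and inside those of replicate 2, at 670 and 1285.

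**Figure D2:**
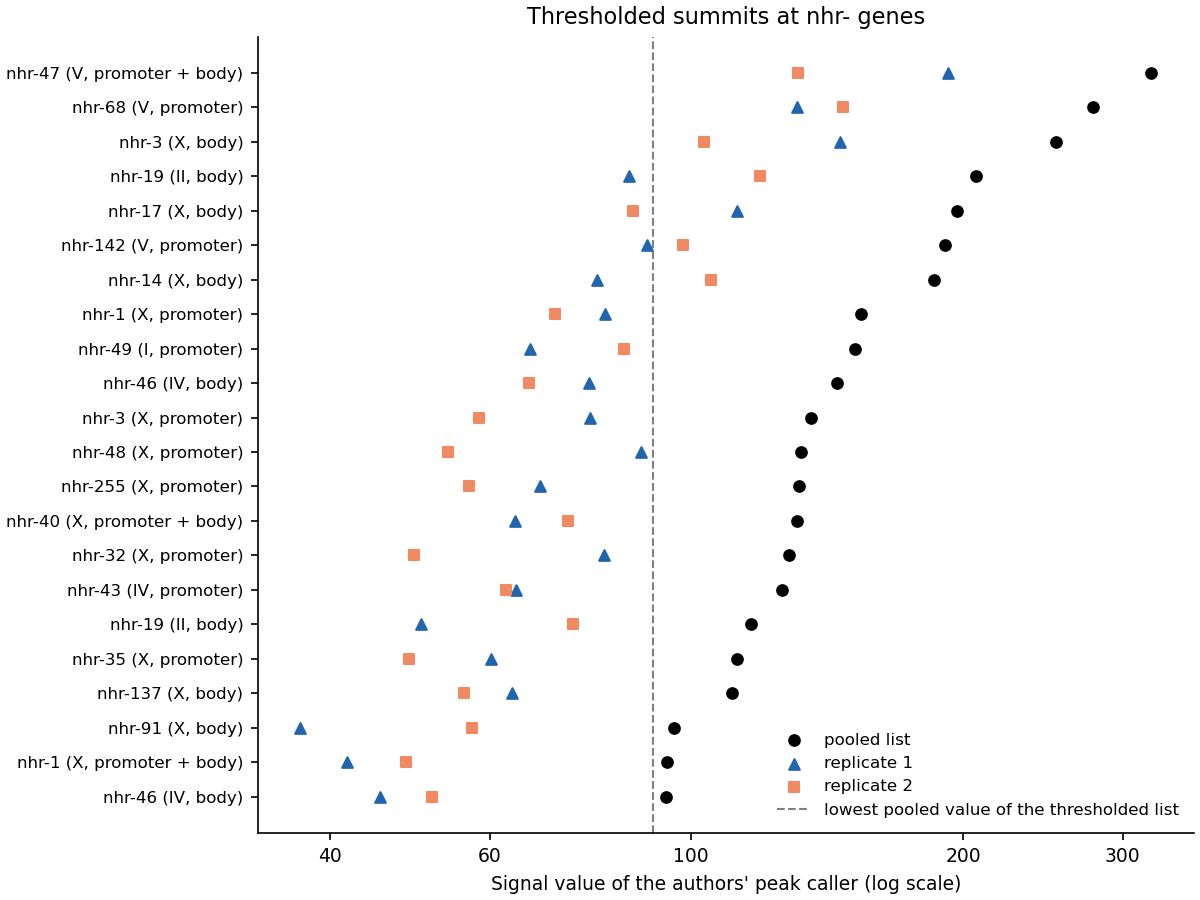
Signal values of the 22 distinct thresholded summits at receptor genes, 1 row per summit, with the pooled value and both replicate values on a log axis and the lowest pooled value of the thresholded list as a dashed line. Pooled values run from 94.0 to 323, and the highest, at nhr-47 and nhr-68, are on V.

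The 22 distinct summits at 18 genes were of ordinary strength. Their median pooled signal value was 134, against 139 over all 1609 nuclear thresholded summits, which reached 2060. On X the 13 receptor summits ran from 94.3 to 253 with a median of 132, and the 386 summits there had a median of 146. The ratio of the replicate 1 to the replicate 2 value had a median of 1.08 over the 22 summits, with a range of 0.647 to 1.63, and of 1.18 over the 1604 nuclear summits with a value in each. By the annotation, 10 summits lay upstream, 11 in introns, 1 in an untranslated exon and 0 in coding exons. Those upstream lay 37 to 961 bp before the nearest start with a median of 424.5 bp, and those in introns 850 to 5653 bp inside from the outermost start with a median of 3637 bp.

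**Figure D3:**
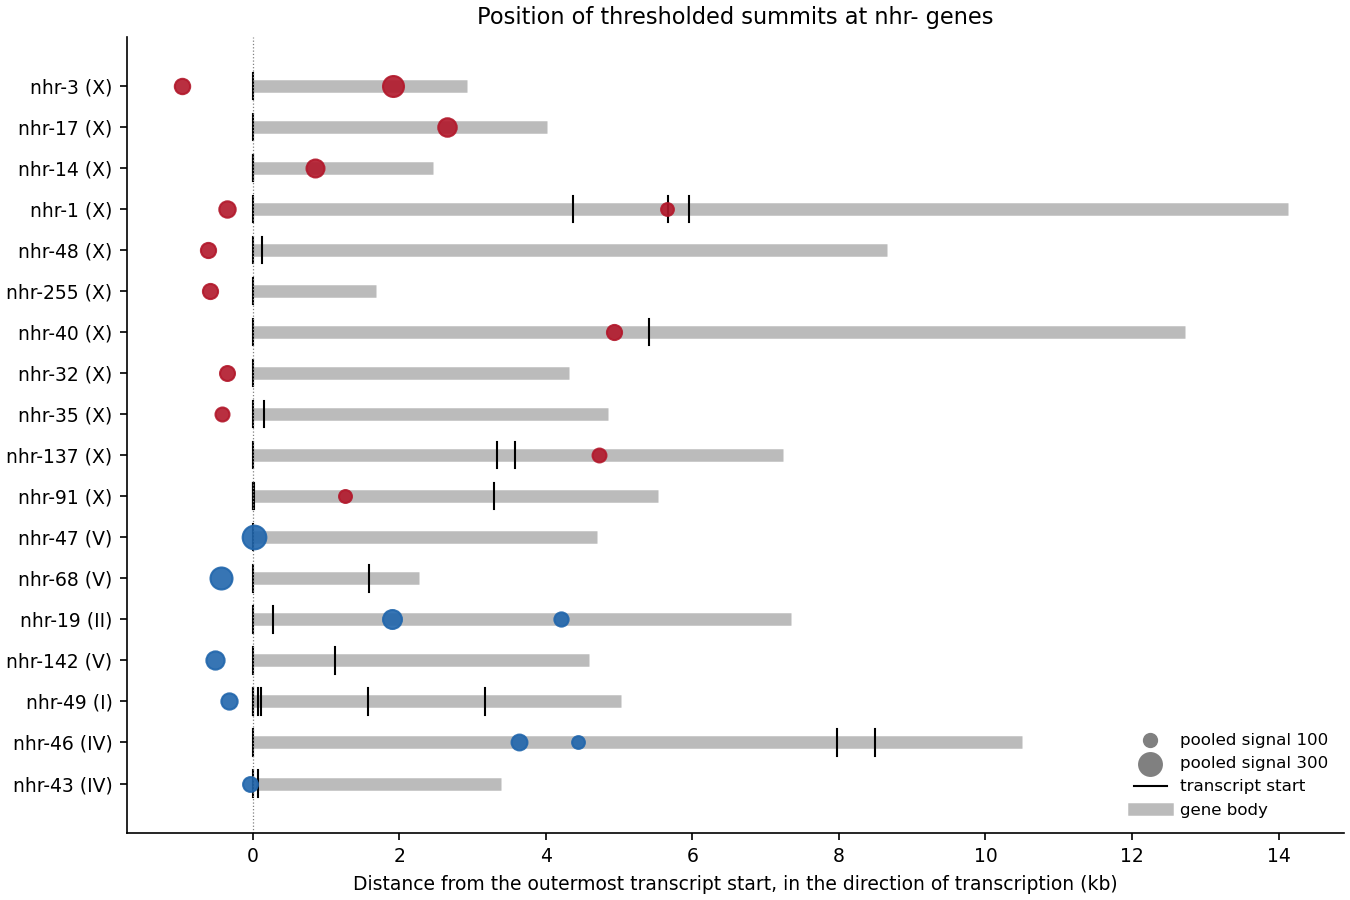
Position of each thresholded summit along its receptor gene, in kb from the outermost transcript start in the direction of transcription, with the gene body as a grey bar, transcript starts as black lines and the circle area as the pooled signal value. Upstream summits stay within 961 bp of a start, and intron summits reach 5653 bp inside at nhr-1.

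Each replicate list was also read by itself. In replicate 1, 12 receptor genes had a promoter summit among the 1631 strongest entries, and in replicate 2 there were 13. All 12 of the thresholded receptor genes were in both, or 4.46% of the family, against 4.12% of all genes with such a summit in both replicates. Over all genes, 817 of the 1081 with a thresholded promoter summit were in both. The single receptor gene found in 1 replicate alone was nhr-8, which acts in detoxification and cholesterol balance, at rank 1078 in replicate 2, 8601 in replicate 1 and 4609 in the pool. Because the thresholded list was made from both replicates, this agreement is not independent of the call.

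Any promoter entry in the pooled list, thresholded or not, was found at 86 of the 269 receptor genes (32.0%), against 36% of all genes. At the rates of the other genes of their chromosomes 81.4 would have been counted, so on this reckoning the family was not lower. An entry in the body was found at 95 (35.3%), against 38.8% of all genes. The replicates gave promoter entries at 85 and 98 receptor genes, 31.6% and 36.4%, against 36.1% and 37.0% of all genes. Among the 86, the median best signal value was 30.0 at a median rank of 11543, against 33.8 at rank 9218.5 over all genes with an entry. Counting the 18 called genes, 98 more with an unthresholded pooled entry and 153 with none accounts for all 269. There were 112 receptor genes (41.6%) with no entry in the promoter or the body in any of the 3 ranked lists, against 35.7% of all genes.

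By chromosome, 16 of 23 receptor genes on X (69.6%) had a promoter entry of any rank, against 39.3% of the other genes on X. The 7 called genes are among these 16. The other 9 had values of 20.6 to 50.8 with a median of 28.8 at rank 12451, against a median of 31.4 at rank 10612 over all genes on X with an unthresholded best entry. Entries below the threshold were thus found at 9 of the 16 uncalled receptor promoters on X (56.2%), against 35.4% of all uncalled genes there, but were not stronger. On V, 36 of 164 uncalled receptor promoters (22.0%) had an entry, close to the 22.1% of all uncalled genes on V, with a median of 22.9 at rank 18593 against 29.3 at rank 12060. On the other autosomes the share was 37.7% against 35.9%, with a median of 30.2 at rank 11403 against 29.8 at rank 11755. Over V as a whole the gap below the threshold was in the strength of the entries and not in their number. No promoter entry was found at 128 of the 167 receptor genes there (76.6%), against 75.1% of all genes on V.

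**Figure D4:**
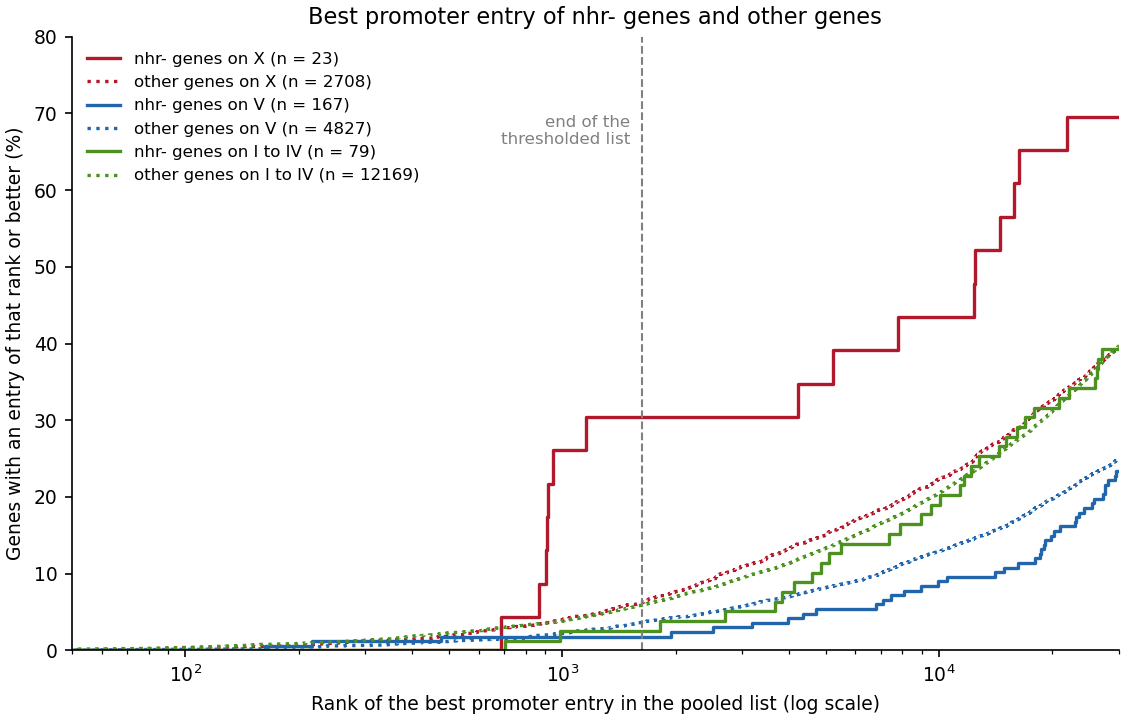
Cumulative share of genes whose best promoter entry in the pooled list has a given rank or better (log axis), for receptor genes and other genes on X, on V and on the other autosomes. The line of the X receptor genes climbs between ranks 866 and 1154, where 6 of its 7 called genes lie, and ends at 69.6%, while that of the V receptor genes ends at 23.4%.

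Of the 12 receptor genes on X without a thresholded summit, nhr-27 and nhr-120 came closest. nhr-27, the longest of the family on X at 102756 bp, had a body entry of 84.2 at rank 1873, and nhr-120 had one of 73.7 at rank 2318. nhr-25, the counterpart of the fly moulting and development regulator Ftz-F1, had a promoter entry of 45.4 pooled at rank 5231, with 29.4 in replicate 1 and 18.7 in replicate 2. No pooled entry was found in the promoter or body of nhr-26, nhr-167, nhr-214, nhr-272 and nhr-281. The others were nhr-28, nhr-45, nhr-71 and nhr-173.

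Among receptor genes called nowhere, the strongest promoter entry was that of nhr-119 on II, at 85.6 pooled and rank 1816, just under the lowest thresholded value. nhr-57 on V, a gene induced by hypoxia, followed at 82.5 and rank 1943, and nhr-114 on V, which protects the germline depending on diet, at 69.7 and rank 2517. Both replicates placed each of these 3 genes between ranks 2047 and 2570. Next came nhr-105 at 66.1, nhr-135 at 59.8, nhr-34 at 55.4, nhr-23 at 54.0, nhr-58 at 52.8, nhr-64 at 51.6 and nhr-50 at 49.9. The replicates were far apart at nhr-58, with ranks 15692 and 3850, and nhr-50 had no promoter entry in replicate 1. NHR-23, the counterpart of a fly ecdysone-response receptor and a regulator of moulting, also had a body entry of 80.02 at rank 2038.

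Receptors with counterparts in other animals or with known metabolic roles were read as lists beside the 6.63% of all genes called at either position and the 36% with a promoter entry. In the list of 10 related to receptors of other animals, 1 had a promoter call, 1 a body call and 8 a promoter entry in the pooled list, with a median best rank of 6297.5. nhr-67, the counterpart of fly tailless, had no promoter entry and a body entry of 36.2 at rank 8036. nhr-6, related to the vertebrate NR4A receptors, had 25.9 at rank 15067, and nhr-85, related to Rev-erb, had 34.3 at rank 8951. In the list of 13 with roles in metabolism and stress, nhr-49 and nhr-68 were called at the promoter and nhr-14 in the body, while 10 had a promoter entry with a median best rank of 4171. With 2 of 10 and 3 of 13 genes called at either position, both shares were above that of all genes, on few genes and without a test. nhr-80, which controls fatty acid desaturases, had no promoter entry in the pooled list and a body entry of 31.8 at rank 10369.

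Genes that act with the receptors were read beside the same shares of all genes. Called at either position were 1 of 5 other receptor genes, 2 of 8 cofactor and hormone synthesis genes and 0 of 4 target genes of NHR-49, and these lists are too short to read a share from. Among 5 nuclear receptor genes with other names, daf-12, the receptor for the steroid-like dafachronic acids, had a body summit of 294 at rank 198 on X, and fax-1, odr-7, sex-1 and unc-55 had no promoter entry. Among 8 cofactor and hormone synthesis genes, cbp-1, which encodes the CBP/p300 histone acetyltransferase, had a promoter summit of 665 pooled, 389 in replicate 1 and 276 in replicate 2. din-1, which encodes a corepressor that binds DAF-12, had 220, 135 and 108. The dafachronic acid synthesis gene daf-9 had an unthresholded promoter entry of 42.4 at rank 5921. Among the targets of NHR-49, acs-2, an acyl-CoA synthetase gene, had 65.0 at rank 2773, the desaturase genes fat-6 and fat-5 had 37.3 at rank 7570 and 16.6 at rank 28682, and fat-7 had no promoter entry.

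Receptor genes on X were also long and widely spaced. Their median length was 4483 bp, against 2531.5 bp for the other genes on X, and the median distance upstream to the next gene was 5033 bp against 2107 bp. Among genes longer than 4000 bp on X, 8 of 15 receptor genes (53.3%) had a summit in the promoter or body, against 13.6% of 794 others. Where both gene length and free upstream sequence were over 2000 bp, 10 of 17 receptor genes (58.8%) were called, against 11.3% of 964 others. Summed over gene lengths, receptor genes on X held 33.1 body summits per Mb with nhr-27 and 64.6 without it, against 10.4 for the other genes there. The 11 called genes on X had a median length of 4856 bp and 6405 bp free upstream, and the 12 uncalled 4271.5 bp and 3211.5 bp. Any part of gene size or spacing beyond these classes was not tested.

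On V the receptor genes were somewhat longer than others, with a median of 2146 bp against 1718 bp, and their free upstream sequence was alike, at 1032 bp against 942 bp. They lay more often on the chromosome arms: 33.5% were in the middle 50% of V, against 53.2% of the other genes. There, 3 of 56 receptor genes (5.36%) had a promoter summit, against 5.33% of the others. On the arms, 0 of the other receptor genes of V did, against 1.68% of 2259 others. On X the direction with position was the opposite, with 2 of 14 receptor genes (14.3%) called in the centre and 5 of 9 (55.6%) on the arms, against 5.59% and 6.90% of the others. Receptor genes within 10000 bp of another receptor gene numbered 159, of which 2 had a promoter summit and 36 (22.6%) a pooled entry. Of the 110 standing alone, 10 had a promoter summit and 50 (45.5%) an entry. Over all genes, 5.41% had a thresholded promoter summit and 36% an entry. Of the 159, however, 122 were on V, and within V the shares with an entry were close, at 28 of 122 and 11 of 45. A promoter summit was found at 1 of these 122 genes and 2 of these 45. On X, the 17 lone genes held all 7 promoter calls and 6 body calls, and the 6 others held 0 and 1. Of all genes on X, 6.41% had a promoter call and 3.37% a body call.

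Sequence sites were counted in 201 bp around each summit, on both strands, and in windows of the same width centred 1000 bp away on either side. The T-box site GGTGTG was found at 2 of the 22 receptor summits (9.09%), those of nhr-48 and nhr-40, against 7.58% of all nuclear summits and 5.03% of all flanks. The longer form GGTGTGA, which contains it, was at 0 of 22, against 0.994% of all. GAGAGAG was found at 7 (31.8%), against 22.2% of all summits and 3.48% of all flanks, and it repeats in overlapping copies at nhr-43. The palindrome CACGTG was at 3 (13.6%), those of nhr-19, nhr-32 and nhr-68, against 7.77% of all summits and 3.92% of all flanks. The GATA site TGATAA was at 3 (13.6%), against 10.0% of all summits, but flanks held it as often or more, at 13.6% for receptor genes and 18.7% for all, and within 50 bp of the summit it was at 1 of 22 (4.55%), against 4.29% of all summits. CGCAGGG, added after the data were seen, was at 2 (9.09%), nhr-48 and nhr-255, against 2.61% of all summits, 6.48% of those on X and 0.342% of flanks. The copy at nhr-255 lay 94 bp from the summit, inside the neighbouring tRNA gene. Within 50 bp of the summit CGCAGGG was at 1 of 22 (4.55%), against 2.05% of all summits. With 22 summits, 1 more or fewer moves a share by 4.55 percentage points. The median GC content of the windows was 46.8%, against 45.8% over all summits.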

How the data were processed

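Anti-GFP ChIP-seq was made by the submitters in 2 biological replicates of 1 group, and the labels' antibody field names tbx-2 while their description names an antibody against GFP. Each value is the signal value that the authors deposited in narrowPeak lists on ce11: a ranked list per replicate, 1 for the pooled replicates, and 1 thresholded on the irreproducible discovery rate, as the deposited file listing states. The names of the aligner, peak caller and settings were not given in the sources used here, read counts are absent from the lists, and a possible control that the labels name was not analysed here. The lists were read with Ensembl release 115 of WBcel235, whose coordinates are those of ce11, and 0 entries passed a chromosome end. Python 3.11.15, pandas 2.3.3, numpy 2.4.6 and matplotlib 3.10.9 were used, and the overlap code was tested on simulated intervals.

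A summit in the window of several genes was counted for each. The replicate value of a summit is that of the strongest replicate entry overlapping its peak, and values of different lists were only set side by side. No test was made: there is 1 group, and the members, lists and sites were chosen with earlier results of these data known. Named genes were all receptor genes with a thresholded summit, the 10 others with the strongest promoter entries, and nhr-25, nhr-23, nhr-67, nhr-6, nhr-49, nhr-80, nhr-8 and nhr-85. The other receptor genes on X were named after their values were seen. Free upstream sequence runs from a gene's outermost start to the next protein-coding gene, and the middle 50% of a chromosome is by length. Alternatives changed the window, the number of entries, the rule for shared summits, the transcript starts and the replicate used.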

Additional observations from a re-analysis of the deposited data

How the results depend on the processing

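The strength threshold moved the counts most. With the stronger 815 of the 1631 thresholded entries, promoter calls of receptor genes fell from 12 to 5, body calls from 10 to 6 and promoter calls on X from 7 to 1, the one left being nhr-1. The shorter list lowers calls for every gene, and over all genes promoter calls fell from 1081 to 594. It left 1.86% of receptor genes called at the promoter, against 2.97% of all genes. On X it left 4.35%, against 3.19% of all genes there. The share of all genes with a body call was not counted at this setting, and nhr-3, nhr-14 and nhr-17 on X kept theirs. With the strongest 815 entries of each replicate, the genes in both fell from 12 to 4, and the share over all genes was not counted at this setting. With promoter windows from 500 bp upstream, calls on X fell to 4 of 23 (17.4%, against 4.50% of all genes there), losing nhr-3, nhr-48 and nhr-255. Windows from 2000 bp upstream gave 8 of 23 on X (34.8%, against 8.71%). Over all chromosomes they gave 16 receptor genes (5.95%, against 7.29% of all genes). Use of the outermost start alone lost nhr-40 and left 11, and the share over all genes was not counted there. Each replicate used alone gave 12 to 13 promoter calls, 9 to 12 body calls, 85 to 98 genes with a promoter entry, 7 promoter calls on X and 3 on V. The promoter calls were 4.46% of receptor genes in replicate 1 and 4.83% in replicate 2, against 5.24% and 5.13% of all genes. On X they were 30.4% of receptor genes in each replicate, against 6.37% and 6.15% of all genes there. On V they were 1.80% in each, against 3.42% and 3.34%. For body calls, the share over all genes was not counted in single replicates. The genes with an entry were partly others. Of the 86 with a pooled promoter entry, 65 had one in replicate 1 and 73 in replicate 2. In the body, replicate 1 lost nhr-1 and nhr-91 and gained nhr-43, and replicate 2 gained nhr-31 and nhr-120. Of the planned and added alternatives, 39 left a count within 1.5 times its main value or a share of sites within its margin, and 5 did not. The margin of a site share was a binomial confidence interval on 22 summits, which is wide. TGATAA, at 13.6% within 100 bp and 4.55% within 50 bp, still counted as within it. The site alternatives therefore cannot show that the site shares are stable. No paired analysis was possible because there is 1 group. Depth is unknown, so a gene without an entry is not shown to be unbound, and the small number of receptor genes on X limits its shares. Length, spacing, chromosome-position and tRNA classes and CGCAGGG were chosen after seeing the data.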
